A study of Mus musculus with 6 samples.

Results

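The genes described here encode proteins that crosslink the collagen matrix, fibronectin, and matricellular proteins, in colon and liver of mice with colitis. They were 10 genes fixed by name, Lox, Loxl1, Loxl2, Fn1, Sparc, Postn, Tnc, Thbs1, Thbs2 and Spp1, read through array probe sets that the annotation maps to that symbol alone. Of these, 8 genes with 18 probe sets could be read, out of 18194 genes and 45101 probe sets in all. Loxl2 had 2 probe sets, both annotated to a further symbol as well, and no probe set was annotated to Spp1, so neither gene has a value here. Thbs1 kept 2 probe sets and lost 1 that it shares with another symbol.

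Male C57BL6/J mice, 7 weeks old, formed 3 groups. DSSPAR mice ate a basal diet with 2% parsley and drank plain water for 7 days and then for 9 days 1.5% (w/v) dextran sodium sulphate, whose injury of the gut lining is a standard way to induce colitis, by the treatment protocol. DSS mice ate the basal diet without parsley and drank plain water for 7 days and then the same 1.5% polymer, for 10 days by the treatment protocol. CON mice had the basal diet and plain water throughout. Total RNA was pooled over the 7 mice in each group and put on 1 Affymetrix Mouse Genome 430 2.0 array per tissue, so 6 arrays were compared, no comparison has a replicate, and no p-value is given. By these labels diet and 1 day of exposure differed together between DSSPAR and DSS and cannot be told apart.

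Lysyl oxidases are secreted copper enzymes that oxidise lysine in collagen and elastin, which lets the fibres crosslink and stiffens the tissue. Fibronectin is a cell-adhesive scaffold laid down early in repair, and liver also secretes it into plasma. Matricellular proteins such as SPARC, periostin, tenascin-C and the thrombospondins are matrix proteins that mainly tune how cells respond to the matrix, and several are known for their appearance in wounded tissue.

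Values are MAS5 intensities on a linear scale, 1 for each probe set and array. A gene is given by its brightest probe set in the tissue, and folds are ratios of intensities after values under a floor were raised to it. The floor was the median intensity of the tissue's 3 arrays, 25.1 in colon and 96.6 in liver, and a fold against an array at the floor is a lower bound. A gene counted as measured in a comparison when at least 1 of the 2 arrays lay above the floor. The ratios of the 2 brightest probe sets of a gene disagreed with a robust SD of 0.35 to 0.40 log2 units in colon and 0.44 to 0.52 in liver, which leaves out differences between pools and arrays. The ratio of array medians was -0.20 log2 for DSSPAR over DSS, -0.08 for DSS over CON and -0.28 for DSSPAR over CON in colon, and -0.31 to -0.15 over the liver comparisons. Tissue labels fitted their markers: all 8 colon epithelium markers lay above the floor in each colon array, and all 8 hepatocyte markers in each liver array. The 5' probe set of 18S ribosomal RNA read 390.4 in colon DSSPAR, 4018 in colon DSS and 6156 in colon CON, and 58100 to 93321 in liver. The ratio of 3' to 5' control probe sets of beta-actin was 1.30 to 1.69 in colon. In liver it was 2.63 in DSSPAR, 3.53 in DSS and 3.55 in CON, so the liver arrays were not alike in it. For Gapdh the ratio was 0.70 to 0.85 in colon and 1.07 to 1.54 in liver.

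In colon, 6 of the 8 genes were higher in DSS than in CON and 7 of the 8 were lower in DSSPAR than in DSS. Over all measured genes the median log2 ratio was 0.04 for DSS over CON and -0.01 for DSSPAR over DSS. The share of all genes higher or lower by any amount was not counted. Lox and Sparc passed 2-fold above CON in DSS, and Thbs1, Tnc and Lox passed 2-fold below DSS in DSSPAR. Against CON, no gene was 2-fold off in DSSPAR. Postn was nearly level over the 3 arrays, and Thbs2 was level between DSS and CON but lower in DSSPAR.

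**Figure D1:**
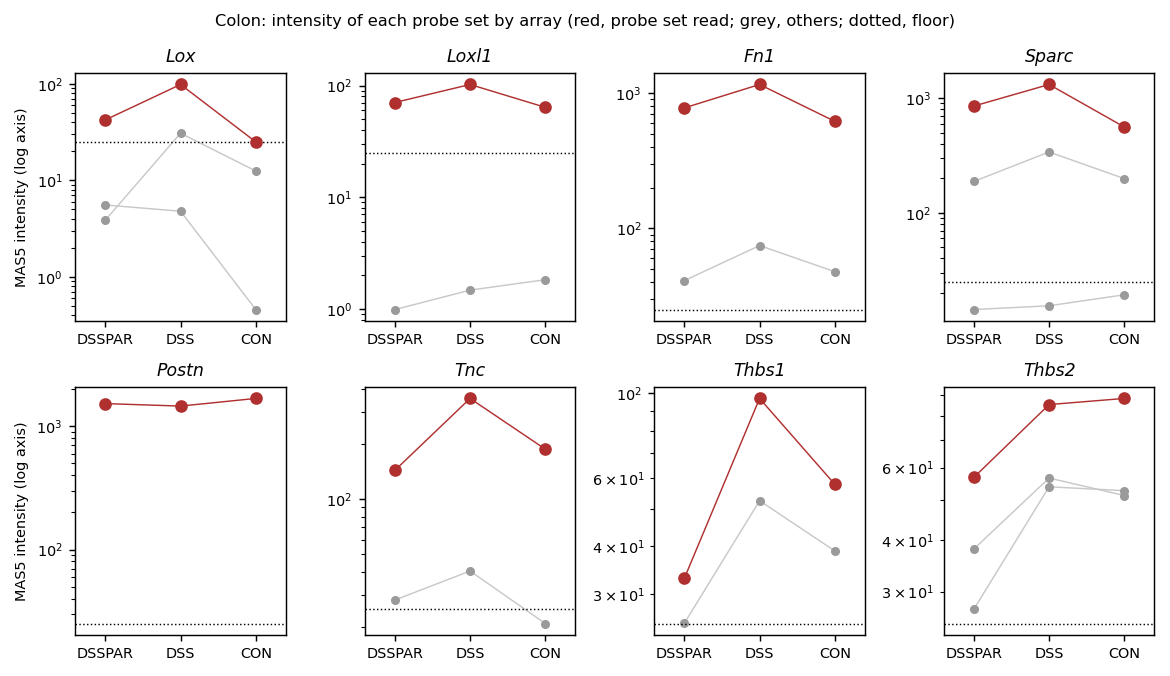
MAS5 intensity (log axis) of every probe set of the 8 genes in the DSSPAR, DSS and CON colon arrays, 1 panel a gene with its own scale. Red points are the probe set read for the gene, grey points its other probe sets, and the dotted line the floor of 25.1. Lox, Loxl1, Fn1, Sparc, Tnc and Thbs1 have their highest red point in DSS, and Postn is nearly flat.

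Among the crosslinking enzymes, Lox, the lysyl oxidase that gives the family its name, read 42.3 in DSSPAR, 98.5 in DSS and 25.0 in CON. The DSS array was the highest, and the CON array lay just under the floor. Lox was thus at least 3.93-fold higher in DSS than in CON, a log2 ratio that 1.01% of the measured genes reached or passed, and 2.33-fold lower in DSSPAR than in DSS. A further Lox probe set read 3.86 in DSSPAR, 30.8 in DSS and 12.5 in CON, above the floor in DSS alone. The remaining one read 5.55, 4.78 and 0.457 in the same order, under the floor throughout. Under a floor at the 75th percentile, 104.1, Lox was not measured at all, nor was it over the mean of its probe sets, so both of its 2-fold calls were lost under either setting. Loxl1, a relative linked to elastic fibres, read 70.6 in DSSPAR, 102.3 in DSS and 63.9 in CON. It was 1.60-fold higher in DSS than in CON and 1.45-fold lower in DSSPAR than in DSS, both short of 2-fold. Its other probe set stayed under the floor, between 0.983 and 1.82.

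Fn1, which encodes fibronectin, read 777.9 in DSSPAR, 1159 in DSS and 618.4 in CON. It was 1.87-fold higher in DSS than in CON and 1.49-fold lower in DSSPAR than in DSS. Its dimmer probe set ordered the arrays with DSS highest too, at 41.1 in DSSPAR, 74.6 in DSS and 47.8 in CON, but placed DSSPAR a little below CON, whereas the bright one placed it 1.26-fold above.

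Among the matricellular genes, Sparc, whose product binds collagen and affects its assembly into fibrils, read 852.6 in DSSPAR, 1314 in DSS and 559.9 in CON. DSS was the highest and CON the lowest, a 2.35-fold difference that 3.09% of the measured genes reached or passed. Sparc was 1.54-fold lower in DSSPAR than in DSS. On a second probe set it read 187.9 in DSSPAR, 339.2 in DSS and 198.7 in CON, which is a log2 ratio of 0.77 for DSS over CON and leaves DSSPAR level with CON (-0.08). Averaged over its probe sets, Sparc had a log2 ratio of 0.67 for DSS over CON and no longer passed 2-fold.

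Tnc encodes tenascin-C, a hexameric protein that is scarce in most resting adult tissues and appears in wounds. It read 143.3 in DSSPAR, 353.7 in DSS and 187.0 in CON. DSS stood above both other arrays, 1.89-fold over CON, and DSSPAR was 2.47-fold lower than DSS. A dimmer probe set gave 28.1 in DSSPAR, 40.5 in DSS and 20.9 in CON, so both had DSS highest and they differed on the side of CON where DSSPAR lay. Over the mean of its probe sets the log2 ratio of DSSPAR over DSS was -0.91, short of 2-fold.

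Thbs1 encodes thrombospondin-1, which activates latent TGF-beta, restrains vessel growth and is stored in platelets. It read 32.9 in DSSPAR, 97.0 in DSS and 57.9 in CON. Thbs1 was 1.68-fold higher in DSS than in CON, while DSSPAR was the lowest array, 2.95-fold below DSS and 1.76-fold below CON. For DSSPAR over DSS, 0.315% of the measured genes had a ratio as low or lower. The second Thbs1 probe set ordered the arrays in the same way, at 25.1 in DSSPAR, 52.5 in DSS and 38.8 in CON. All of these values lay under the 75th percentile, so Thbs1 was not measured with the floor set there.

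Thbs2, the related thrombospondin-2, read 56.8 in DSSPAR, 85.3 in DSS and 88.3 in CON. Its other probe sets read 38.1 and 27.2 in DSSPAR, 56.6 and 53.9 in DSS, and 51.3 and 52.7 in CON. On all 3 probe sets DSSPAR was the lowest array, with log2 ratios of -0.99 to -0.57 against DSS and -0.96 to -0.43 against CON, while DSS and CON differed by at most 0.14. Postn, which encodes periostin, a partner of collagen and tenascin-C, read 1528 in DSSPAR, 1458 in DSS and 1682 in CON on its single probe set. Its log2 ratios, -0.21 for DSS over CON and 0.07 for DSSPAR over DSS, were inside the disagreement between probe sets.

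Promoter sequence is shown for Tnc and Sparc, which were both highest in the DSS colon, and for Postn, which was nearly level there. Each line holds the 250 bases upstream of 1 annotated RefSeq start (GRCm38.p6), 5' to 3' on the gene's strand. Tnc lies at chr4:64046937-64047186 on the minus strand, Sparc at chr11:55420081-55420330 on the minus strand and Postn at chr3:54360857-54361106 on the plus strand. Windows were matched for 5 of the 10 genes. RefSeq lists 2 starts for Tnc and 2 for Postn, the arrays do not show which was used, and the start with a TATA box is the one printed for each. Capitals mark matches to TATANAA, known as the TATA box, TGANTCA, the AP-1 pattern, GGGCGG, known as the GC box, and the CCAAT box, searched on both strands.
Tnc: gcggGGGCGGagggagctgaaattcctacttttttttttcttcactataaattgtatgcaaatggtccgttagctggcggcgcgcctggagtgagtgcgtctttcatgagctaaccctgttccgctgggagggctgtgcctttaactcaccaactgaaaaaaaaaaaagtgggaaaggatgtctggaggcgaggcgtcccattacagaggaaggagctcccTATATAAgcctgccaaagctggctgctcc
Sparc: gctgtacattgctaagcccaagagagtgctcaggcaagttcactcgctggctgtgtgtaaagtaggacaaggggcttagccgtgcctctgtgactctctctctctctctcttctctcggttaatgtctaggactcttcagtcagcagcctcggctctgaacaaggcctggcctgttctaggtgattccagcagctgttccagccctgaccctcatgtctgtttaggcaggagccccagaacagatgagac
Postn: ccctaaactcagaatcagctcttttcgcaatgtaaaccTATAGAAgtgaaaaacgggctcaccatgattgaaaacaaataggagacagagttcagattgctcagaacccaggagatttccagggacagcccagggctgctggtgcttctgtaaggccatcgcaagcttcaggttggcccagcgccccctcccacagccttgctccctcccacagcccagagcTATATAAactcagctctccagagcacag
Tnc and Postn both hold TATANAA close to the start, 29 to 23 bases upstream in Tnc and 28 to 22 bases upstream in Postn, and Postn holds it again 212 to 206 bases upstream. The Tnc window also holds GGGCGG, 246 to 241 bases upstream. At the other start, Tnc has GGGCGG as its one match and Postn has none of the 4 patterns. None of the 4 patterns is in the Sparc window, and no marked match overlaps another. Of 32851 windows of 250 bases, 10.4% hold TATANAA, 6.75% hold TGANTCA, 32.7% hold GGGCGG and 33.8% hold CCAAT. The printed starts of Tnc and Postn were chosen for the TATA-box pattern, so its presence in both says nothing about their array values. The patterns were picked with the array values known.

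Counted over the 8 genes for DSS over CON, 2 were at least 2-fold higher and none was 2-fold lower, where 5.18% of 11952 measured genes were higher and 1.97% lower by that fold. Their median log2 ratio was 0.83, beside 0.04 over all measured genes. The count of 2 became 3 with arrays centred on their medians, as Tnc then reached 2-fold, 1 (Sparc) with a 75th percentile floor and 0 over the mean of probe sets. For DSSPAR over DSS, 3 of the 8 were at least 2-fold lower and none higher, where 1.24% of 11730 genes were lower and 0.392% higher. The median was -0.61, beside -0.01 over all genes, and -0.41 with arrays centred on their medians. That count was 1 (Tnc) with a 75th percentile floor and 1 (Thbs1) over the mean of probe sets. For DSSPAR over CON, none of the 8 passed 2-fold in either direction, where 3.51% of 11808 genes were higher and 2.1% lower, and the median was 0.00. With arrays centred on their medians that median was 0.28, with Sparc at 0.89, Fn1 at 0.61 and Postn at 0.14, where Postn had been at -0.14, and over all settings it lay between -0.12 and 0.28. The comparisons of DSSPAR with DSS and of DSS with CON share the DSS array, so a chance high or low value there would enter both with opposite sign. Fewer cells of a type and less RNA per cell cannot be told apart in these tissue pools.

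**Figure D2:**
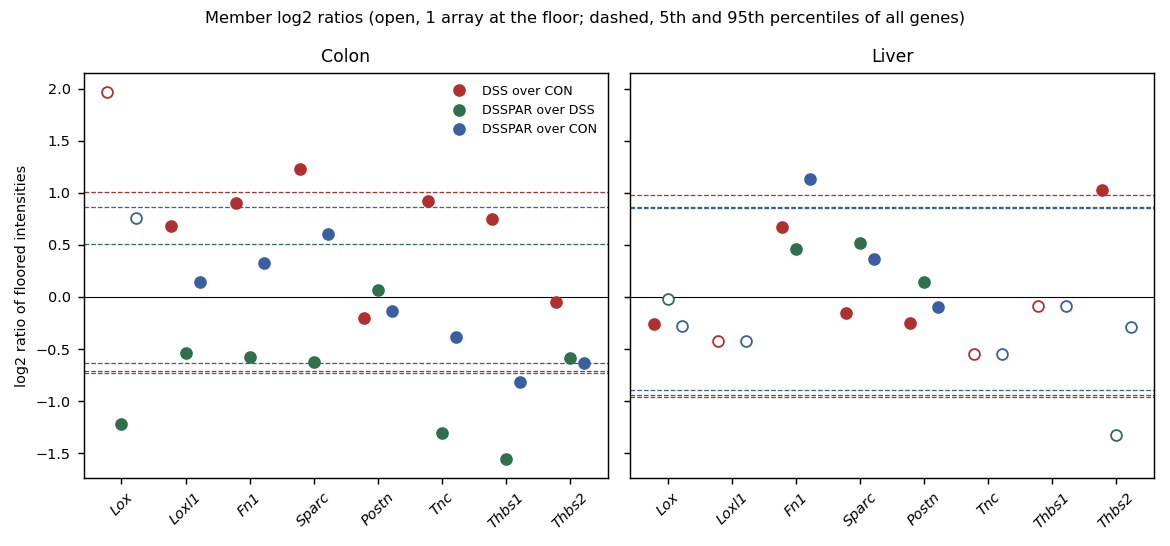
Log2 ratios of floored intensities (vertical axis) for the 8 genes in colon (left) and liver (right) under the 3 comparisons. Filled points are ratios of 2 arrays above the floor, open points have 1 array at the floor, and dashed lines are the 5th and 95th percentiles of all measured genes in the colour of the comparison. In colon Lox and Sparc lie above the upper line for DSS over CON, and Lox, Tnc and Thbs1 lie far below the lower line for DSSPAR over DSS.

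Genes that modify and process collagen leaned the same way in colon with smaller ratios. Of 15 measured, 14 were above CON in DSS, 1 of them at least 2-fold (median log2 ratio 0.53). That 1 was Tgm2, the tissue transglutaminase that crosslinks fibronectin and other matrix proteins, at 1378 in DSS against 633.2 in CON. Plod2, which hydroxylates the lysines that lysyl oxidases use in collagen telopeptides, read 90.6 in DSS against 47.5 in CON. In DSSPAR, 13 of the 15 were below DSS, none by 2-fold (median -0.24, beside -0.01 over all measured genes). That median was inside the disagreement between probe sets, 0.35 log2 units, and close to the ratio of the array medians, -0.20. Plod2 (log2 ratio -0.99) and Tgm2 (-0.95) came closest, followed by Serpinh1, the collagen chaperone, at 288.9 in DSSPAR against 428.0 in DSS. Against CON, 10 of 15 were higher in DSSPAR, none by 2-fold.

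Other matricellular genes had no common direction for DSS over CON, and small ratios, mostly below 0, for DSSPAR over DSS. Of 23 on the array, 13 were measured for DSS over CON, 5 above and 8 below CON (median -0.07). Ccn2, which encodes connective tissue growth factor, was 2.14-fold lower in DSS, at 111.4 against 238.7 in CON, and was the single member past 2-fold. Fbln1, which encodes the matrix protein fibulin-1, read 184.2 in DSS against 98.6 in CON. In DSSPAR, Ccn2 read 135.5 and Fbln1 108.2. Of 12 measured for DSSPAR over DSS, 10 were lower, none by 2-fold (median -0.23, beside -0.01 over all measured genes). That median was inside the disagreement between probe sets, 0.35 log2 units. It was also close to the ratio of the array medians, -0.20, so a scaling difference cannot be told apart from it.

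Receptors of these proteins were above CON in DSS in 12 of 15 cases, 2 of them by at least 2-fold (median 0.36). Cd47, a receptor for thrombospondin-1, read 868.2 in DSS against 363.8 in CON. Stab1, a scavenger receptor that takes up SPARC, read 85.7 in DSS against 38.2 in CON. For DSSPAR over DSS, 13 of 15 were lower (median -0.51). Itgb6, an epithelial integrin subunit whose receptor binds fibronectin and latent TGF-beta, was the 1 past 2-fold, at 32.5 in DSSPAR against 68.6 in DSS. Itgb1, the beta subunit shared by many matrix receptors, had a log2 ratio of -0.79.

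Markers of the cells that could carry these transcripts differed between the same arrays, not all in 1 direction. The summed intensity of 11 fibroblast markers was 9230 in DSSPAR, 11952 in DSS and 6557 in CON. Its largest parts in DSS were the matrix genes Dcn, at 3722, and Col3a1, at 3540. Fap went the other way, at 48.9 in DSS against 82.8 in CON. For DSS over CON, 10 of the 11 were higher, 2 by 2-fold (median 0.58), and for DSSPAR over DSS 9 were lower, none by 2-fold (median -0.26). The 8 endothelial markers summed to 416.1 in DSSPAR, 738.4 in DSS and 407.4 in CON, with 4 past 2-fold above CON in DSS and 2 past 2-fold below DSS in DSSPAR. The 12 macrophage and monocyte markers summed to 6721 in DSSPAR, 7252 in DSS and 2072 in CON, and 10 of them were at least 2-fold higher in DSS than in CON, while none was 2-fold lower in DSSPAR than in DSS. The 9 smooth muscle markers summed to 13966 in DSSPAR, 13603 in DSS and 15506 in CON, none of them 2-fold off. For DSS over CON, 8 of these were lower (median -0.31), and for DSSPAR over DSS their median was 0.02. The part of these cells in the results was not tested.

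Of 5 platelet markers on the array, Gp9 and Treml1 were under the floor in every colon array, and the 5 summed to 339.0 in DSSPAR, 288.8 in DSS and 232.7 in CON. That sum was highest in DSSPAR, where Thbs1 was lowest. Most of the sum was Pf4, at 257.8 in DSSPAR, 215.9 in DSS and 158.1 in CON, while Itga2b read 41.2, 42.9 and 34.6 in the same order. Exocrine pancreas markers, which colon cells do not normally express, passed 2-fold above CON in DSS in 8 of 8 cases and summed to 68.0 in DSSPAR, 2598 in DSS and 66.8 in CON. The 7 squamous epithelium markers summed to 233.7 in DSSPAR, 281.2 in DSS and 100.6 in CON, with Sprr1b and Sprr3 under the floor throughout. The part of these markers' tissues in the values of the 8 genes was not tested.

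**Figure D3:**
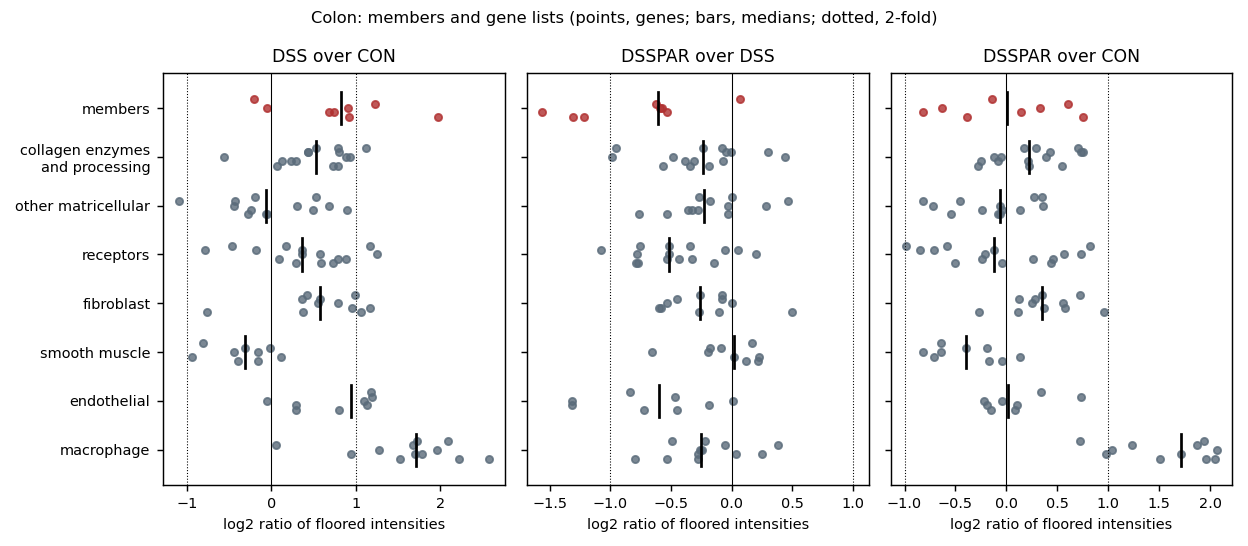
Colon log2 ratios of floored intensities (horizontal axis) of the 8 genes (red) and of genes in other lists (grey), 1 panel a comparison. Each point is a gene, bars are medians and dotted lines mark 2-fold. The 8 genes have medians of 0.83, -0.61 and 0.00, and the macrophage list lies far right in both comparisons with CON.

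The genes whose colon pattern was nearest were sought for the 4 with the widest range, over 10521 genes, as the distance between pairs of log2 ratios (DSS over CON and DSSPAR over CON). With 3 arrays this is a description only, and it rests on 1 probe set per gene. All distances given were smaller than the disagreement between probe sets, 0.39 and 0.40 log2 units in these comparisons. Neighbours on other probe sets were not sought. Nearest to Lox were Fpr2, a formyl peptide receptor gene, Il33, which encodes an alarmin cytokine, and Ggt5, at distances of 0.18 to 0.20. Il33 read 86.4 in DSSPAR, 197.1 in DSS and 55.7 in CON. Nearest to Sparc were Scara3, the mitotic kinase gene Aurkb and Tipin, at 0.03 to 0.04. Nearest to Tnc were Ldb2, the gelatinase gene Mmp9 and Olfm1, at 0.08 to 0.19. The neighbours of Thbs1, which were 3110082I17Rik, Map1b and the kinase gene Zap70, lay farther off, at 0.31 to 0.34.

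In liver different genes of the set stood out. Fn1, which hepatocytes express strongly, was highest in DSSPAR, and Thbs2 was highest in DSS. The remaining genes were near or under the floor or differed little. Liver values are not comparable with colon values, since the arrays of the tissues were scaled apart.

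**Figure D4:**
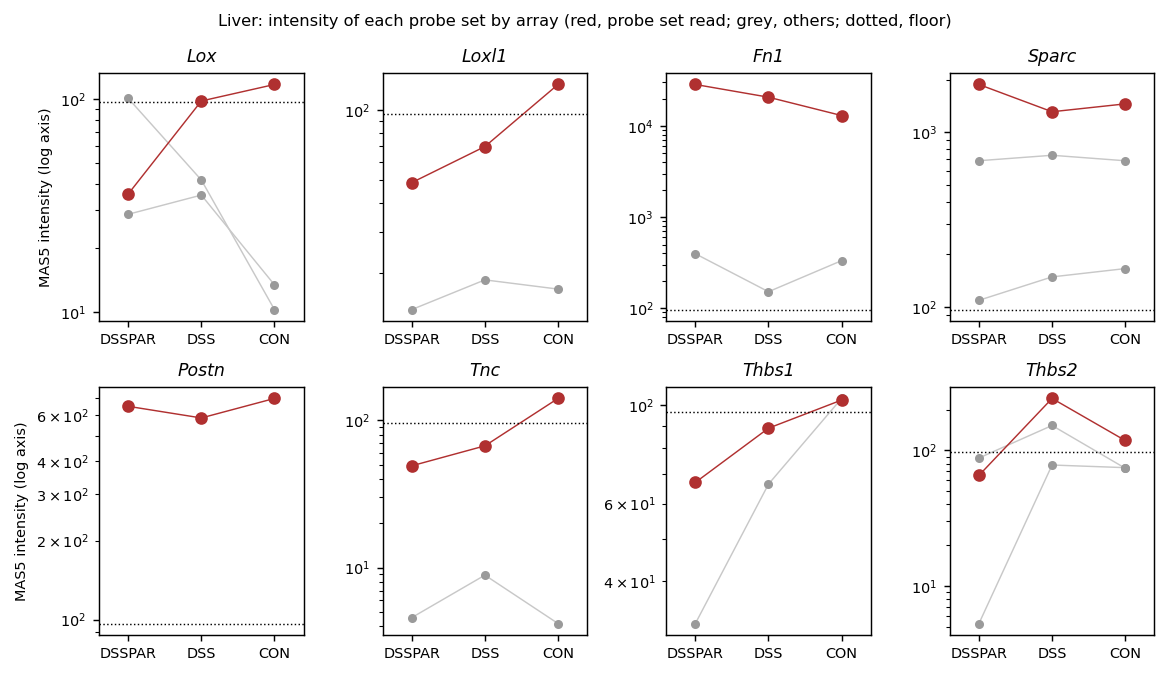
MAS5 intensity (log axis) of every probe set of the 8 genes in the DSSPAR, DSS and CON liver arrays, drawn as for colon, with the floor at 96.6. Fn1 has its highest red point in DSSPAR, Thbs2 in DSS, and the red points of Loxl1, Tnc and Thbs1 are above the floor in CON alone.

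Fn1 read 28529 in DSSPAR, 20694 in DSS and 13018 in CON. DSSPAR stood 2.19-fold above CON, a ratio that 2.11% of the measured genes reached or passed. The steps between were 1.59-fold for DSS over CON and 1.38-fold for DSSPAR over DSS. The latter, a log2 ratio of 0.46, was inside the disagreement between probe sets, 0.52 in that comparison. The dimmer Fn1 probe set read 395.8 in DSSPAR, 151.7 in DSS and 332.5 in CON. It too had DSSPAR highest but put DSS lowest, a log2 ratio of -1.13 against CON. Over the mean of both, Fn1 had a log2 ratio of 0.69 for DSSPAR over CON and -0.23 for DSS over CON, so the first fell short of 2-fold and the second changed sign.

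Thbs2 read 65.4 in DSSPAR, 241.9 in DSS and 118.3 in CON. DSS was the highest array, 2.04-fold above CON, and at least 2.50-fold above DSSPAR, which lay under the floor. A second probe set also had DSS highest, at 87.8 in DSSPAR, 152.7 in DSS and 73.9 in CON, and the remaining one was under the floor in each. The 2-fold calls of Thbs2 were lost over the mean of probe sets, with log2 ratios of 0.56 for DSS over CON and -0.66 for DSSPAR over DSS, and the gene was not measured under a 75th percentile floor.

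Sparc read 1879 in DSSPAR, 1312 in DSS and 1455 in CON, but its probe sets did not share an order. The others read 687.7 and 109.2 in DSSPAR, 738.8 and 148.6 in DSS, and 687.3 and 165.8 in CON, so no direction is given. Postn read 648.3 in DSSPAR, 585.4 in DSS and 694.6 in CON, within 0.25 log2 units throughout. Of the genes close to the floor, Lox read 35.8 in DSSPAR, 97.8 in DSS and 117.0 in CON, while a second Lox probe set ran the other way, at 100.7 in DSSPAR, 41.6 in DSS and 10.3 in CON. Loxl1 read 48.8 in DSSPAR, 69.8 in DSS and 129.2 in CON. Tnc read 49.2 in DSSPAR, 67.1 in DSS and 140.8 in CON. Thbs1 read 67.0 in DSSPAR, 88.8 in DSS and 102.8 in CON. Each of these was above the floor in CON, and all but Lox were under it in both other arrays, so their folds are lower bounds.

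Over the 8 genes in liver, 1 was at least 2-fold higher in DSS than in CON (Thbs2) and none lower, where 4.73% of 13034 measured genes were higher and 4.2% lower. The median log2 ratio was -0.20, beside -0.02 over all genes. Of 5 measured for DSSPAR over DSS, 1 was at least 2-fold lower (Thbs2) and none higher, where 4.23% of 12398 genes were lower and 2.8% higher, with a median of 0.15. For DSSPAR over CON 1 of 8 was at least 2-fold higher (Fn1) and none lower, where 3.26% of 12721 genes were higher and 3.45% lower, with a median of -0.19. A single gene, of 8 or of 5, is too few to be set apart from those shares, so the liver counts are no result about the group.

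Among collagen enzymes in liver, 12 of 16 measured were above CON in DSS, 3 of them by at least 2-fold (median 0.47). They were Pcolce2, an enhancer of procollagen cleavage, at 495.2 in DSS against 214.6 in CON, Ppib, a cyclophilin of the endoplasmic reticulum, at 42129 in DSS against 19702 in CON, and Tgm2 at 8382 in DSS against 3985 in CON. In DSSPAR, Tgm2 read 7875, and none of 14 genes of this list was 2-fold off DSS. Of 13 receptors measured, 4 were past 2-fold above CON in DSS and 1 past 2-fold below. Itgav, the integrin subunit of the vitronectin and fibronectin receptors, read 3024 in DSSPAR, 9821 in DSS and 3050 in CON, so DSS alone stood apart. Cd44, a receptor for hyaluronan and osteopontin, read 1060 in DSSPAR, 1380 in DSS and 524.2 in CON.

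Stellate cell markers, 8 of 8 above the floor in CON, summed to 10972 in DSSPAR, 14215 in DSS and 13257 in CON, and none was 2-fold off CON in either group. Macrophage and monocyte markers summed to 32951 in DSSPAR, 36381 in DSS and 19401 in CON, with Itgam and Gpnmb under the floor in each array. Hepatocyte markers summed to 446214 in DSSPAR, 726501 in DSS and 566236 in CON. Fn1 was highest in DSSPAR, where that sum was lowest. Fibroblast markers summed to 14907 in DSSPAR, 20848 in DSS and 13645 in CON, with Fap under the floor in each array. The DSS sum was highest, as Thbs2 was, but most of it was Dcn, at 14668.5 in DSS. Of 10 fibroblast markers measured for DSS over CON, 6 were higher and 4 lower, so they did not move together. The part of these cells in the liver values was not tested.

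**Figure D5:**
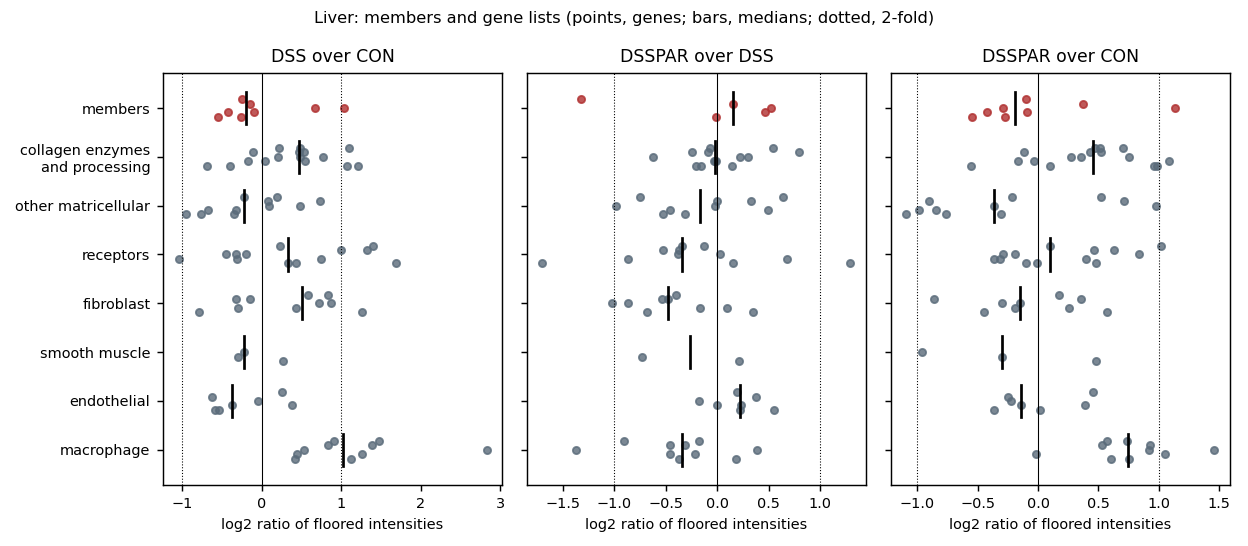
Liver log2 ratios of floored intensities (horizontal axis) of the 8 genes (red, measured ones) and of genes in other lists (grey), drawn as for colon. The medians of the 8 genes are -0.20, 0.15 and -0.19, and only Fn1 and Thbs2 pass a dotted 2-fold line among them.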

How the data were processed

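Biotin-labelled RNA, 15 µg of total RNA per array from pools of 7 mice, was hybridised to 6 arrays, per the labels' protocols. The deposited values are linear intensities that the authors made with MAS5, per the submitters' processing notes, and neither a version nor a scaling target is given in the sources used here. The mean after trimming 2% from either tail was 106.2 to 111.0 in colon arrays and 499.8 in liver arrays, so the tissues were analysed apart. Of 45101 probe sets, 34958 had 1 gene symbol in the platform annotation, 932 had several and 9211 were not listed and stayed unnamed. The 10 genes, the gene lists and the tests were chosen with earlier results of these data known. All 10 genes were to be named, with up to 4 genes per list and comparison by size of ratio. Log2 ratios were computed over the whole table for 3 comparisons per tissue and genes counted past 2-fold. With 1 array per group no test was run, and precision is limited by the number of arrays. The other 7 settings changed the floor, the scaling or the choice of probe sets. The ratio step was tested on simulated data holding 200 genes changed by known folds. The changed genes were drawn from those well above the floor, so the test does not cover genes near it. Python 3.11.15, NumPy 2.4.6, pandas 2.3.3 and matplotlib 3.10.9 were used.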

Additional observations from a re-analysis of the deposited data

How the results depend on the processing

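Under 7 alternatives, 111 of 126 recomputed counts and medians of the 8 genes stayed close to the reported ones and 15 moved. Of 273 single-gene ratios 16 moved, none of those past 2-fold turning round. The 273 leave out each ratio of a gene not measured under a setting. Calls lost in that way, such as those of Lox in colon, are thus not among the 16. With the floor at the 75th percentile, 4 genes were measured in colon and 3 in liver. In colon 1 gene was then higher in DSS than in CON and 1 lower in DSSPAR than in DSS. In liver 0 were higher in DSS than in CON, 0 were lower in DSSPAR than in DSS, and the median for DSSPAR over CON was 0.37. With no floor, colon counts did not move. In liver 1 gene was at least 2-fold lower in DSS than in CON and 2 were in DSSPAR than in DSS (median -0.43). In DSSPAR against CON 3 were at least 2-fold lower (median -0.74). All of these rested on values under the floor in 1 array. With the mean over probe sets, 6 genes were measured in colon and 4 or 5 in liver. Colon had 0 genes higher in DSS than in CON and 1 lower in DSSPAR than in DSS, and liver had 0 higher in DSS than in CON, 0 lower in DSSPAR than in DSS and 0 higher in DSSPAR than in CON. That setting averages in dim probe sets held at the floor. Scaling, and leaving out probe sets of the type that can pick up shared sequence, moved no count by over 1.5 times, but centring on array medians took the colon median for DSSPAR over CON to 0.28, against 0.00 as reported. No paired analysis was possible because each group had 1 array per tissue. Low signal limits the genes not measured under the 75th percentile floor, which are Lox, Loxl1, Thbs1 and Thbs2 in colon and these and Tnc in liver.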

Other observations

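TGF-beta inputs to matrix genes showed 1 gene past 2-fold in colon, where 5.18% of measured genes were that far above CON in DSS. Of 9 measured for DSS over CON, 7 were above CON (median log2 ratio 0.19), and Tgfbr3, the co-receptor betaglycan, read 509.5 in DSS against 197.9 in CON. Of 8 measured for DSSPAR over DSS, 7 were below DSS, none by 2-fold (median -0.37), with Tgfbr3 at 256.3 in DSSPAR. In liver, 6 of 7 were below CON in DSS, none by 2-fold (median -0.48), and Tgfbr3 there read 467.8 in DSS against 818.9 in CON, so its ratio had opposite signs in the tissues. That difference was not tested.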
